A study of Macaca mulatta with 33 samples.

Results

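Macrophages are the resident phagocytes of the corpus luteum, the gland left behind by the ovulated follicle. They clear dying cells and matrix, present antigen and secrete cytokines, and they are known to gather in the gland as it regresses. The genes described here are 10 macrophage markers, chosen as those whose symbol is C1QA, C1QB, C1QC, LYZ, CSF1R, CD68, MRC1, AIF1, TYROBP or CD14, and followed one by one over 7 groups of rhesus monkey (Macaca mulatta) corpora lutea. They stand among 10507 genes measured above the dim range of the array. The roles given for them below are those known in human and mouse.

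RNA of whole luteal tissue from adult cycling females was hybridised to 33 Affymetrix Rhesus Genome arrays. At luteal day 15, after 6 days of rising doses of human chorionic gonadotropin (hCG, the hormone that keeps the gland alive in early pregnancy), there were 4 arrays with hCG, trilostane (TRL) and R5020, 4 with hCG and TRL, and 5 with hCG alone. At day 10, after 1 day of hCG, there were 4 arrays of each of the same 3 treatments. Untreated day 10 tissue gave 8 arrays. TRL blocks 3-beta-hydroxysteroid dehydrogenase and so the last step of progesterone synthesis, and R5020, a progestin made in the laboratory, was given on top of it as replacement. All treated groups thus received hCG, every R5020 group also received TRL, and there was no untreated group at day 15. Every comparison of a day 15 group with a day 10 group, untreated tissue included, therefore also differs in luteal day. The labels do not say that each array came from a separate animal, so a p-value here reflects only how far these samples differ among themselves, and that spread may be technical.

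The array names put the samples in 3 array sets. Set 1 holds 4 untreated arrays, both other day 10 groups without R5020 and 4 of the hCG day 15 arrays, set 2 holds the other 4 untreated arrays, the R5020 day 10 group and 3 arrays of each of the R5020 and TRL day 15 groups, and set 3 holds the 1 remaining array of each day 15 group. The arrays of replicate 4 of the R5020 and TRL day 15 groups were near-identical although their labels differ: the standard deviation of their difference over probe sets was 0.192, against a median of 0.476 over all 528 pairs of arrays. The next closest pair was hCG day 15 replicates 3 and 5, at 0.201. Their labels give different replicate numbers, but their array names and the stated 4 samples per group make them the same sample number. They are averaged here as 1 sample, leaving 32 samples. The tissue check was plain in every group: STAR, which carries cholesterol into the mitochondrion for steroid synthesis, lay between 14.42 and 14.89 on the log2 scale in all samples, near the top of the array's range of 15.1.

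The markers were bright in luteal tissue. Values are log2 intensities with the array medians aligned, so 1 unit is a 2-fold difference, and levels of different probe sets are not set against each other. The 10 genes had 15 probe sets, and 14 passed the filter on dim values. The 1 that did not is the second probe set of CD68, which lay at 4.26 to 5.6 on all arrays. Each gene is represented by its brightest probe set, all 10 of which exceeded the array-wide median of 6.19 on 33 of 33 arrays. Between the lowest and the highest array the range was 10-fold for MRC1, 9.07-fold for C1QB, 9.03-fold for AIF1, 8.81-fold for C1QC, 8.67-fold for LYZ, 7.43-fold for C1QA, 4.67-fold for CSF1R, 3.87-fold for TYROBP, 3.85-fold for CD68 and 3.82-fold for CD14.

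**Figure D1:**
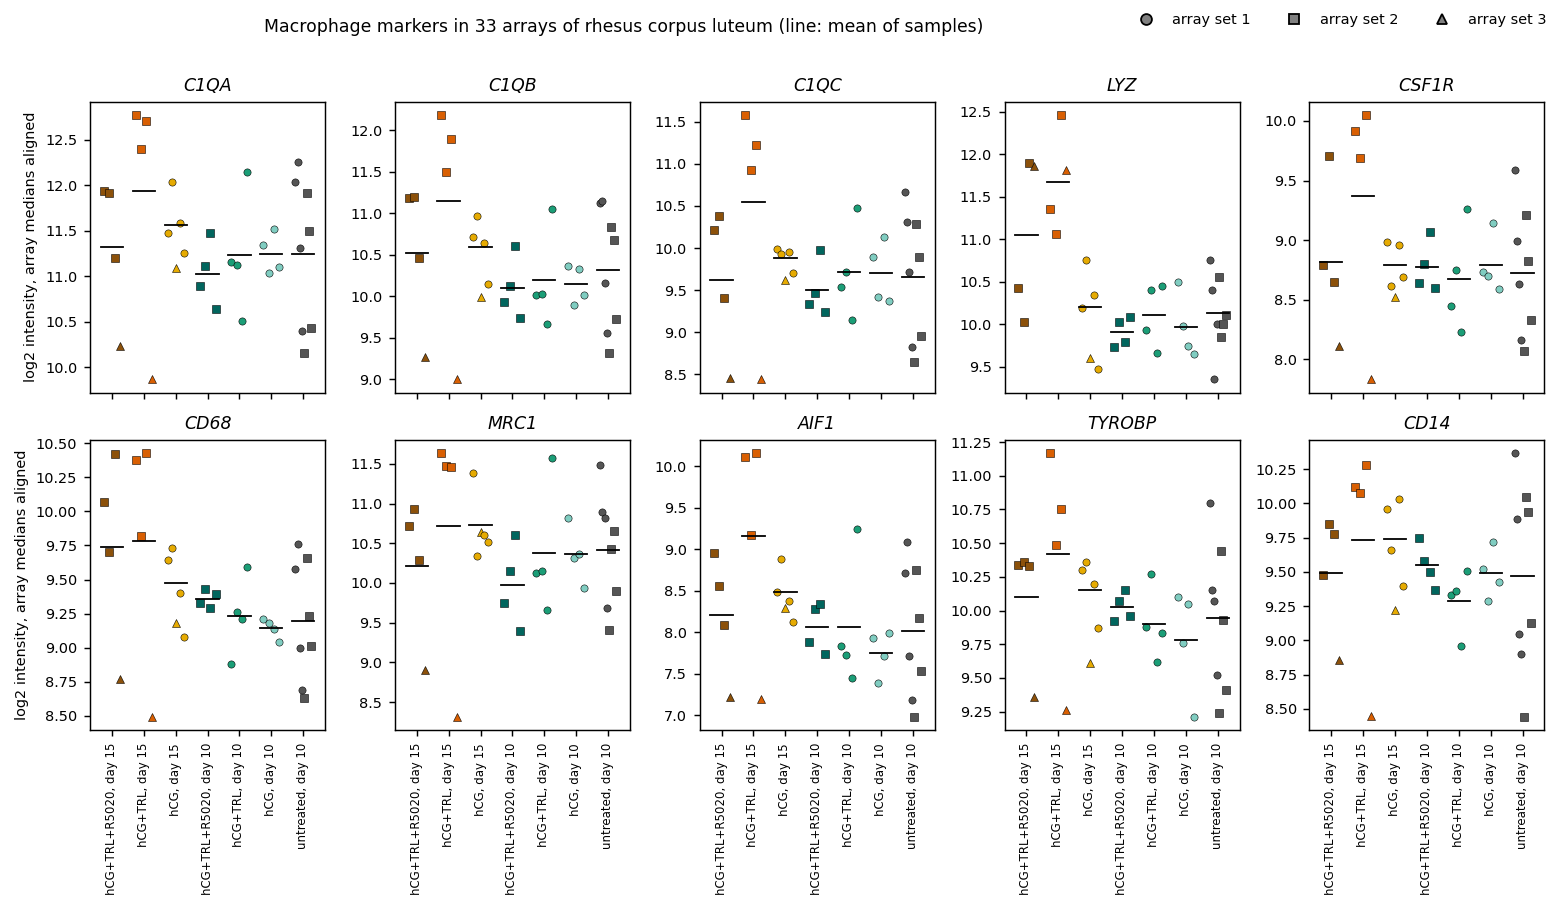
Log2 intensity (array medians aligned) of each marker on each of the 33 arrays, by group, with circles, squares and triangles for array sets 1, 2 and 3 and a line at the mean of the samples. In the hCG and TRL day 15 group 3 arrays lie at the top of nearly every panel and the triangle near the bottom, except for LYZ, where all 4 exceed 11.

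In tissue given hCG and TRL for 6 days, 3 of 4 arrays ranked among the 6 highest of 33 for every marker, and the other array ranked among the lowest for all markers except LYZ. In the fit of all samples with array set as a term, 8 of the 10 markers passed limma's test as higher in that group than in untreated tissue (Benjamini-Hochberg adjusted p under 0.05 over all probe sets), and 4.47% of all genes did so. The changes of the 10 genes had a median of 1.22 on the log2 scale, against -0.02 for all genes. The markers that passed were AIF1, LYZ, C1QC, C1QB, C1QA, CSF1R, CD68 and TYROBP. MRC1 and CD14 did not pass.

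C1QA, C1QB and C1QC encode the 3 chains of C1q, which recognises antibody and dying cells and starts the classical complement pathway. C1QB lay at 12.18, 11.50, 11.89 and 9.00 in the hCG and TRL day 15 samples, against a lowest of 9.32, a median of 10.42 and a highest of 11.14 in the 8 untreated samples. The change was 1.49 ± 0.36 (SE, adjusted p = 0.0099 by limma). The first 3 samples stood above every untreated sample and replicate 4 stood below every one of them. Here and below, replicate 4 was set apart after seeing the values. The share of all genes that separate from untreated tissue in this way was not computed.

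C1QC had the same arrangement. It lay at 11.58, 10.93, 11.22 and 8.44 with hCG and TRL at day 15, against 8.64 to 10.67 with a median of 9.80 in untreated tissue (change 1.52 ± 0.38, adjusted p = 0.013 by limma). The brightest probe set of C1QA lay at 12.77, 12.40, 12.70 and 9.87, against 10.16 to 12.25 with a median of 11.41 in untreated tissue (change 1.36 ± 0.39, adjusted p = 0.030). For both genes 3 samples were above the untreated range and replicate 4 was the lowest of all 33 arrays.

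LYZ encodes lysozyme, the secreted enzyme that cuts bacterial cell walls, made by macrophages and also by granulocytes. It lay at 11.35, 11.06, 12.46 and 11.81 with hCG and TRL at day 15, against 9.35 to 10.75 with a median of 10.06 in untreated tissue (change 1.54 ± 0.36, adjusted p = 0.0086 by limma). All 4 samples, replicate 4 included, stood above all 8 untreated samples, all hCG day 15 samples and all TRL day 10 samples. For no other marker did all 4 samples separate from these groups. How many of all genes separate in this way was not computed.

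AIF1 encodes the actin-binding protein also called IBA1, a stain for tissue macrophages. It lay at 10.11, 9.17, 10.16 and 7.20 with hCG and TRL at day 15, against 6.98 to 9.09 with a median of 7.94 in untreated tissue (change 1.69 ± 0.41, adjusted p = 0.011 by limma). CD68, a glycoprotein of the lysosome membrane, lay at 10.38, 9.82, 10.43 and 8.49, against 8.63 to 9.76 with a median of 9.12 (change 0.98 ± 0.22, adjusted p = 0.0053). Replicates 1 to 3 exceeded the untreated range for both, and replicate 4 fell near its lower end or below it.

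CSF1R is the receptor for the growth factors CSF1 and IL34, which macrophages need to survive. It lay at 9.92, 9.69, 10.05 and 7.83 with hCG and TRL at day 15, against 8.07 to 9.59 with a median of 8.73 in untreated tissue (change 1.06 ± 0.29, adjusted p = 0.024 by limma). TYROBP, the adaptor through which many myeloid receptors signal (also called DAP12), lay at 11.17, 10.49, 10.75 and 9.26, against 9.24 to 10.80 with a median of 10.00 (change 0.94 ± 0.24, adjusted p = 0.015). For TYROBP only replicate 1 exceeded the highest untreated sample.

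The 2 receptors of the list that did not pass overlapped with untreated tissue even without replicate 4. MRC1, the mannose receptor that takes up glycoproteins, lay at 11.64, 11.48, 11.46 and 8.31, against 9.41 to 11.49 with a median of 10.54 in untreated tissue (change 1.07 ± 0.41, adjusted p = 0.11 by limma). CD14, which hands bacterial lipopolysaccharide to the receptor TLR4, lay at 10.12, 10.08, 10.28 and 8.45, against 8.44 to 10.37 with a median of 9.51 (change 0.64 ± 0.28, adjusted p = 0.17). For both genes replicates 1 to 3 lay in the upper part of the untreated range or just above it.

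**Figure D2:**
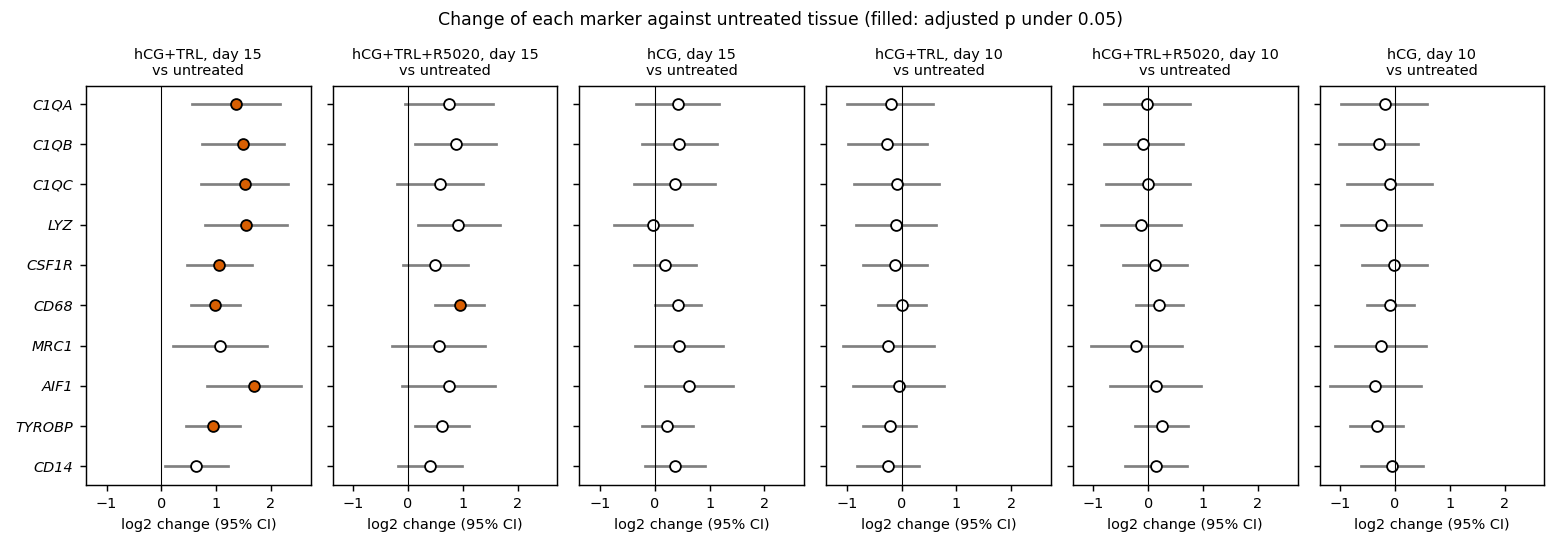
Log2 change of each marker against untreated day 10 tissue in the 6 treated groups (points with 95% confidence intervals, filled where the adjusted p is under 0.05). The hCG and TRL day 15 panel holds 8 filled points between 0.94 and 1.69, the R5020 day 15 panel 1, and the other 4 panels none.

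These calls rest on how array set 3 is treated. Replicate 4 of the hCG and TRL day 15 group was the lowest of 33 arrays for C1QA, C1QB, C1QC, CSF1R, CD68 and MRC1 and ranked 31st to 32nd from the top for AIF1, TYROBP and CD14, but was the 4th highest for LYZ. The term for set 3 was -1.39 to -2.62 for the 9 markers other than LYZ and 0.19 for LYZ. The 2 hCG day 15 arrays of the same sample number, 1 in set 3 and 1 in set 1, differed by only -0.26 to 0.16 for the 10 genes. Which of these readings holds for replicate 4 was not tested.

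With array set 3 left out, 9 markers passed against untreated tissue, all but CD14, with changes from 0.77 for CD14 to 1.95 for AIF1, while 3.23% of all probe sets were called higher. Within array set 2 alone, with 3 hCG and TRL samples against 4 untreated samples, the same 9 passed and 2.81% of all probe sets were called higher. With no term for array set, or with set 3 counted as set 1 (an alternative chosen after seeing the data), only LYZ passed, at 1.54 and 1.61, while 4.82% and 4.64% of all probe sets were called higher. AIF1 was then 1.14 and 0.98, and C1QB 0.82 and 0.63. Leaving out single samples gave 2 to 9 passing markers: 2 without replicate 1, 4 without replicate 3 of the hCG and TRL day 15 group, and 4 without untreated replicate 6. CD68 passed in all 32 such fits, C1QB and LYZ in all but 1, and C1QA and CSF1R in all but 5.

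**Figure D3:**
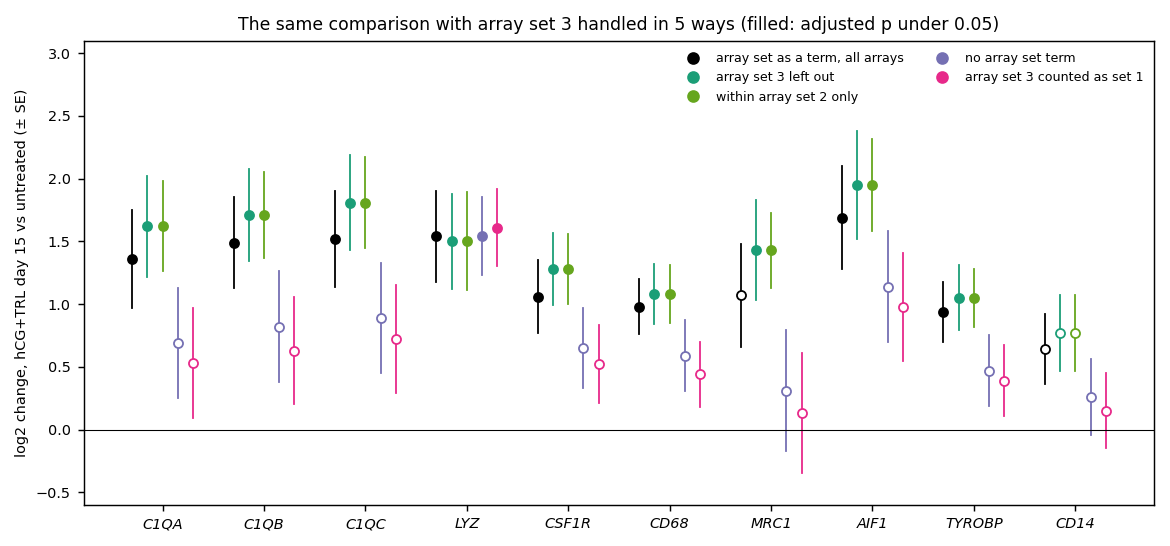
Log2 change of each marker in hCG and TRL day 15 tissue against untreated tissue under 5 treatments of array set (points with SE, filled where the adjusted p is under 0.05). LYZ stays near 1.5 under all 5, whereas the other 9 markers are lower when the low replicate 4 array is not given its own set.

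Tissue given R5020 with hCG and TRL for 6 days had a single passing marker. Against untreated tissue all 10 changes were above 0, as were 50.6% of all genes. The markers' median was 0.68, but only CD68 passed, against 1.79% of all genes higher. All markers but LYZ varied together in untreated tissue (given below), so here and below such counts of direction are not separate results. CD68 lay at 10.07, 9.70, 10.42 and 8.77 with hCG, TRL and R5020, against 8.63 to 9.76 in untreated tissue (change 0.94 ± 0.22, adjusted p = 0.014 by limma). That call was lost without an array set term (0.54, adjusted p = 0.28), with set 3 counted as set 1 (0.40, adjusted p = 0.42), and when untreated replicate 6 (0.77, adjusted p = 0.063) or R5020 replicate 3 (0.81, adjusted p = 0.060) was left out. The direction of the other markers moved with it: 8 changes were above 0 without a set term (median 0.12) and 5 with set 3 counted as set 1 (median -0.01), against 10 with set 3 left out (median 0.62).

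LYZ in the R5020 day 15 group divided into a pair of lower and a pair of higher samples, at 10.43, 10.03, 11.89 and 11.86 (change against untreated 0.92 ± 0.36, adjusted p = 0.18 by limma). AIF1 lay at 8.96, 8.56, 8.09 and 7.22, C1QB at 11.18, 11.19, 10.46 and 9.27, and CSF1R at 8.79, 9.71, 8.65 and 8.11. Replicate 3 was among the highest for LYZ and CD68 and below replicates 1 and 2 for AIF1, C1QB and CSF1R.

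The direct effect of R5020 at day 15, the question of progestin replacement, had no passing marker. Relative to hCG and TRL, all 10 changes were below 0, with a median of -0.58 and a range of -0.95 for AIF1 to -0.04 for CD68. Of all genes 58.1% were above 0. No gene of the array passed this comparison (0% of all genes). The difference was -0.95 ± 0.41 for AIF1 and -0.93 ± 0.38 for C1QC (unadjusted p = 0.027 and 0.020, adjusted p = 1.0 by limma for each). Among replicates 1 to 3, a subset taken after seeing the values, the R5020 samples lay below all hCG and TRL samples for 7 markers, C1QA, C1QB, C1QC, MRC1, AIF1, TYROBP and CD14, as did 3.91% of all genes. With the near-identical replicate 4 arrays included, no marker separated the groups.

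For TRL at day 15, the question of steroid removal, all 10 markers lay above hCG alone in the fit, as did 36.3% of all genes, and no marker passed. The markers' median change was 0.91, and their changes ran from 0.27 for CD14 to 1.58 for LYZ. 5 markers had an unadjusted p under 0.05, the lowest adjusted p was 0.60, and again 0% of all genes passed. LYZ lay at 11.06 to 12.46 with hCG and TRL, against 9.53 to 10.76 in the 4 hCG samples (change 1.58 ± 0.47, unadjusted p = 0.0023, adjusted p = 0.60 by limma). Without replicate 4, again a subset taken after seeing the values, all 10 markers lay above every hCG day 15 sample, as did 7.76% of all genes. These 2 groups share no array set other than set 3, so this comparison leans on the terms fitted for the sets. With no set term 8 changes were above 0 (median 0.46), with set 3 counted as set 1 there were 5 (median -0.00), and with set 3 left out there were 10 (median 1.43).

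For the R5020 day 15 group against hCG alone no marker passed, and 0% of all genes did. The marker changes ran from 0.03 for CD14 to 0.96 for LYZ, all above 0, as were 40.8% of all genes. This direction moved with the handling of array set: 3 changes were above 0 with no set term (median -0.16) and 1 with set 3 counted as set 1 (median -0.62), against 10 with set 3 left out (median 0.55).

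The TRL effect at day 15 minus that at day 10 had a median of 0.85 over the markers. It was 1.44 ± 0.59 for LYZ and 0.99 ± 0.48 for CSF1R (SE, adjusted p = 1.0 by limma for each). The same difference for R5020 had a median of -0.78. Neither had a passing gene, 0% in both. The medians were 0.37 for TRL and -0.47 for R5020 with no set term, 1.38 and -1.14 with set 3 left out, and -0.09 and -0.04 with set 3 counted as set 1.

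Day 10 tissue, after 1 day of hCG, showed no passing marker. hCG alone was below untreated tissue for all 10 genes, by -0.01 for CSF1R to -0.36 for AIF1 (median -0.22, against 0.06 for all genes). Of all genes 61.7% were above 0, and 4.24% were called higher. The lowest unadjusted p of a marker was 0.17, for TYROBP. With no set term 3 changes were above 0 (median -0.05), and with set 3 counted as set 1 there were 8 (median 0.24). AIF1 lay at 7.93, 7.39, 7.71 and 7.99 with hCG, inside the untreated range, and LYZ lay at 10.49, 9.98, 9.74 and 9.65, also inside it. The CD68 samples with hCG spanned only 9.04 to 9.21, in the middle of the wide untreated spread.

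The other day 10 groups also had no passing marker. With TRL and hCG the markers differed by -0.26 to 0.01 from untreated tissue, where 1.17% of all genes were called higher, and by -0.20 to 0.31 from hCG alone, where 0.00952% of all genes passed in either direction. In that last comparison the median of all genes was -0.11, and -0.05 without centring of the arrays, and the markers' median was 0.03. With R5020 added they differed by -0.22 to 0.25 from untreated tissue, with 0.476% of all genes called higher, by -0.02 to 0.46 from TRL and by 0.04 to 0.58 from hCG alone, each of these 2 with 0% of all genes. The 95% interval of the difference from TRL was -1.15 to 1.18 for MRC1, so a change of 1 log2 unit either way was not detectable there. The small differences of the R5020 day 10 group also turned with the handling of array set. That group shares no array set with the day 10 groups given TRL or hCG alone. The markers' median against TRL was 0.18 in the fit, -0.05 with no set term and -0.56 with set 3 counted as set 1, and against hCG alone it was 0.18, -0.03 and -0.46. Against untreated tissue the median was -0.16 for TRL and 0.05 for R5020 in the fit, and 0.27 and -0.25 with set 3 counted as set 1.

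A single TRL day 10 sample, replicate 4, was the highest of its group for AIF1, MRC1 and C1QB. Its AIF1 was 9.24 against 7.45 to 7.84 in the other 3, its MRC1 11.58 against 9.66 to 10.15, and its C1QB 11.05 against 9.66 to 10.03. Its TYROBP, at 9.83, was within theirs. The test for outlying values given below flagged none of these.

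Levels were higher after 6 days of hCG, at day 15, than after 1 day, at day 10, without a call. Duration of hCG and luteal day cannot be told apart there. For day 15 against day 10 of hCG alone, all 10 changes were above 0 with a median of 0.54, as were 46.7% of all genes. Of the markers 4 had an unadjusted p under 0.05, but none passed, whereas 3.17% of all genes were called higher. The markers' median was 0.32 with no set term, 0.33 with set 3 left out and 0.32 with set 3 counted as set 1. AIF1 lay at 8.21 to 8.88 (mean 8.49) in the 4 hCG day 15 samples and at 7.39 to 7.99 (mean 7.75) in the 4 hCG day 10 samples, with no overlap. Its fitted change, with array set as a term, was 0.98 ± 0.41 (adjusted p = 0.16 by limma). The share of all genes without overlap between these groups was not computed. Against untreated tissue the hCG day 15 changes ran from -0.04 for LYZ to 0.62 for AIF1, with 4.08% of all genes called higher. Their median was 0.39 in the fit and 0.08 with set 3 left out.

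With TRL the day 15 group exceeded the day 10 group for all 10 markers, and for 53.3% of all genes. The marker changes ran from 0.89 for CD14 to 1.75 for C1QB (median 1.44). All 10 had an unadjusted p under 0.05 and none an adjusted one, the lowest being 0.056 for C1QB by limma, whereas 1.51% of all genes were called higher. The count changed with the processing: LYZ passed without a set term, where 9.55% of all probe sets were called higher, C1QB and C1QC passed with set 3 left out, where 1.14% were, and up to 6 markers passed when 1 sample was left out. The median change was 0.70 without a set term, 0.30 with set 3 counted as set 1 and 1.64 with set 3 left out. The TRL groups of day 15 and day 10 share no array set, so their comparison leans on the terms fitted for the sets. With R5020 the day 15 group exceeded the day 10 group by 0.26 for CD14 to 1.05 for LYZ (median 0.67), with 1.32% of all genes called higher and no passing marker. That median was 0.19 without a set term and 0.36 with set 3 counted as set 1.

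In whole tissue a higher marker level can come from more macrophages or from more RNA of that gene per macrophage, and the 2 cannot be told apart here.

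The second probe set named C1QA went against the first. It lay at 7.07 to 7.90 with hCG and TRL at day 15, at 9.63 to 10.3 with hCG at day 10 and at 8.24 to 9.25 in untreated tissue. It was thus lower by -1.32 ± 0.26 with hCG and TRL at day 15 (adjusted p = 0.0023 by limma) and higher by 1.57 ± 0.26 after 1 day of hCG (adjusted p = 0.00072), each against untreated tissue, and the groups did not overlap in either comparison. How many of all genes did not overlap there was not computed. The relations of this second probe set were as follows. Over the 32 samples, with the set effect removed, it ran with MYH7B and UNC119 (r = 0.94 each) and against the brighter C1QA probe set (r = -0.61). In the 8 untreated samples the 2 probe sets had r = -0.02 and rho = 0.07 (exact permutation p = 0.96 and 0.88). The brighter one ran with C1QB and C1QC, so the call for C1QA is that of 1 of its 2 probe sets, and their mean differed by 0.02.

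**Figure D4:**
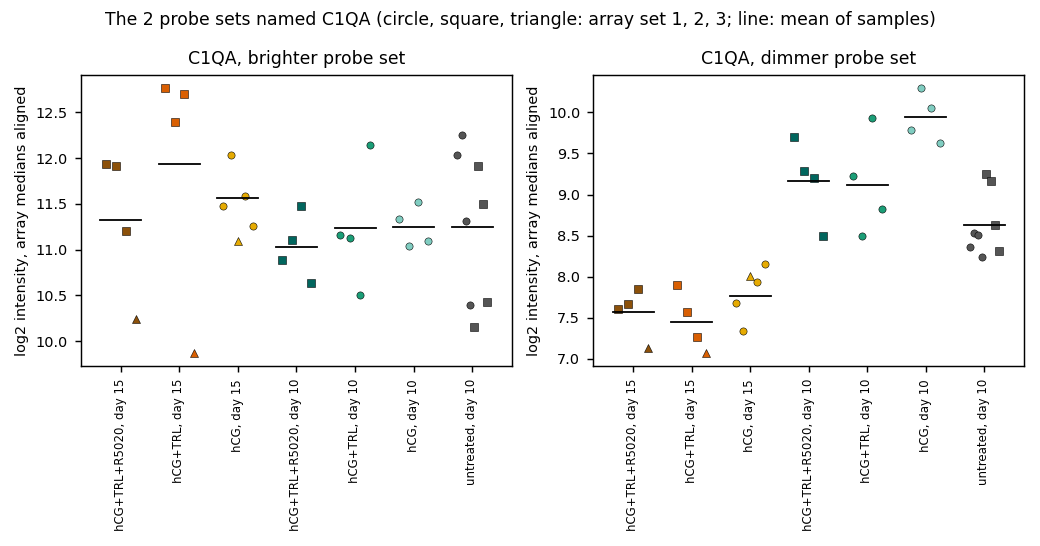
Log2 intensity (array medians aligned) of both probe sets annotated as C1QA on each of the 33 arrays, by group, with symbols for array sets 1, 2 and 3 and a line at the mean of the samples. The dimmer probe set is highest with 1 day of hCG, at 9.63 to 10.3, and lowest at day 15, a pattern the brighter one does not have.

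MRC1 and AIF1 also had further probe sets. A dim MRC1 probe set differed by 0.93 ± 0.45 between hCG and TRL day 15 tissue and untreated tissue and had r = 0.95 with the one used over the untreated samples (exact permutation adjusted p = 0.002 over 4 probe sets), and another differed by -0.13 ± 0.33 (r = 0.61, adjusted p = 0.15). The second AIF1 probe set hardly varied, from 7.03 to 7.76 over all arrays, and differed by 0.14 ± 0.11 (adjusted p = 0.50 by limma).

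The markers varied together even without any treatment. Among the 8 untreated samples, all 36 pairs of the 9 markers other than LYZ correlated, with Pearson's r of 0.78 to 0.99 (median 0.92) and Spearman's rho of 0.71 to 1.00. All 36 had an adjusted p under 0.05 for r and 34 for rho (exact permutation test, adjusted over 45 pairs). Without the 2 samples farthest from the median, r was 0.58 to 0.99, and with the mean of each array set removed it was 0.81 to 1.00. Untreated replicates 1, 2 and 7 were high for C1QA, at 12.03, 12.25 and 11.91, and replicates 4, 6 and 9 low, at 10.40, 10.16 and 10.43. For the same 6 samples CD68 was 9.58, 9.76 and 9.66 and then 8.69, 8.63 and 9.01. All these arrays share their tissue and assay, and high and low samples were found in both array sets. The share of all gene pairs that correlate as strongly over these 8 samples was not computed, so the correlation is not shown to be particular to the markers.

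LYZ did not vary with the rest. Its 9 pairs had r of 0.06 to 0.21 and rho of -0.04 to 0.16, with adjusted p for r of 0.75 to 0.89. Without the 2 samples farthest from the median r was -0.51 to 0.56, and with the set means removed it was 0.07 to 0.21. In untreated replicate 6, the lowest for C1QA, C1QB, C1QC, CSF1R, CD68, MRC1, AIF1, TYROBP and CD14, LYZ was 10.55, the second highest of the group. Over the 32 samples with the set effect removed, only 1 other marker was among the 50 genes most alike to LYZ, whereas the other markers each had 4 to 8. The genes most alike to LYZ were IRF5, at r = 0.81, a transcription factor of myeloid cells, and SGK3, HK3, CD84 and CD300LF, at 0.79 each. With the set effect kept, SLC40A1 was the most alike, at 0.73, and 0 other markers were among the 50.

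**Figure D5:**
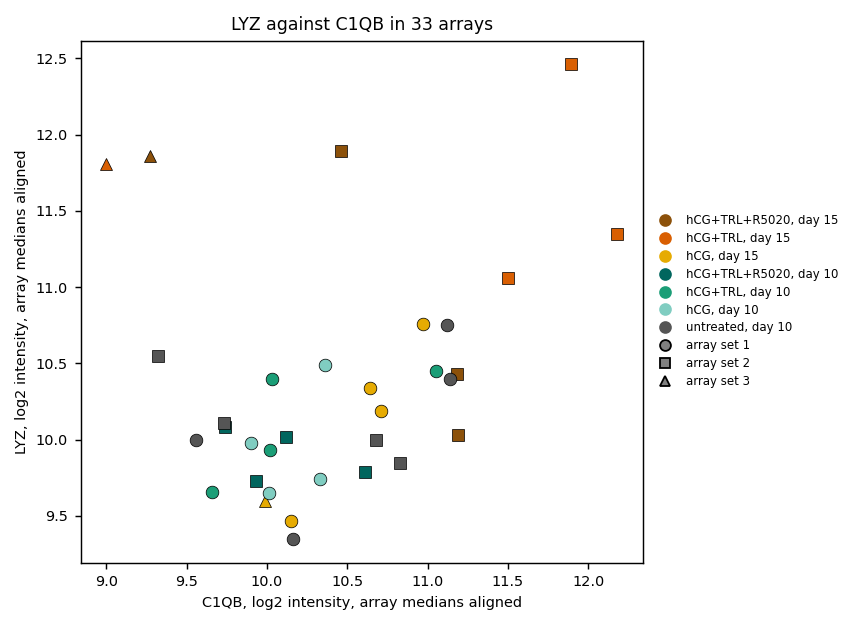
LYZ against C1QB (log2 intensity, array medians aligned) on each of the 33 arrays, coloured by group with symbols for array set. The near-identical replicate 4 arrays of the R5020 and TRL day 15 groups sit alone at upper left, with C1QB at 9.27 (R5020) and 9.00 (TRL) and LYZ at 11.86 (R5020) and 11.81 (TRL).

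The C1q chains had r of 0.97 to 0.98 with each other over the 32 samples, which share treatments and assay, again with the set effect removed. Each chain had the others among its 3 closest genes. AIF1 was at 0.96 to C1QA and to C1QB. CSF1R was closest to C1QC (0.95), and MRC1 to C1QC (0.91) and to MS4A4A (0.90) and VSIG4 (0.90), which are surface proteins of tissue macrophages. CD68 was closest to CYBB (0.94), the catalytic unit of the phagocyte oxidase, and to LCP1 (0.93). TYROBP was closest to the C5a receptor C5AR1 (0.92) and CD53 (0.91), and CD14 to WDFY4 (0.88) and C5AR1 (0.87).

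Other myeloid genes were higher in the same comparison. Of 43 measured genes of a wider myeloid list, 21 passed as higher and 1 as lower with hCG and TRL at day 15 against untreated tissue, with a median change of 0.87, while 4.47% and 5.28% of all genes were called higher and lower. SLC11A1, the metal transporter of phagosomes, lay at 10.25 to 11.11 against 8.98 to 9.91 in untreated tissue, with no overlap (1.34 ± 0.21, adjusted p = 0.00017 by limma). Here and for the list genes below, the share of all genes without overlap with untreated tissue was not computed. SIGLEC1, a sialic acid receptor of macrophages, changed by 1.13 ± 0.20 (adjusted p = 0.0011). The 1 gene that fell was VCAN, a matrix proteoglycan that monocytes and stromal cells make, at 9.35 to 10.22 against 10.18 to 11.88 (-1.33 ± 0.30, adjusted p = 0.0055). Without an array set term 2 genes of this list passed as higher, and with set 3 left out 16 did.

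Against untreated tissue SLC11A1 was the 1 gene of this list to pass with hCG alone at day 15, by 1.18 ± 0.19 (adjusted p = 0.00052 by limma), and it passed with R5020 at day 15, by 1.11 ± 0.21 (adjusted p = 0.0023). With R5020 it was 1 of 4 genes of that list to pass, with GPNMB (1.22 ± 0.28, adjusted p = 0.014), LILRB4 (1.04 ± 0.26, adjusted p = 0.028) and LGMN (1.04 ± 0.27, adjusted p = 0.030). Of all genes 4.08% were called higher with hCG alone and 1.79% with R5020.

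The smaller lists are read against the same shares, 4.47% of all genes higher and 5.28% lower with hCG and TRL at day 15 against untreated tissue. A single passing gene in a short list is given as a value and read no further. The lists share genes. C5AR1 of the complement list, CTSS, MSR1, LY86 and LY96 had already passed in the wider myeloid list and are counted again.

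Beside C1q, 4 of 10 measured complement genes passed as higher with hCG and TRL at day 15 and none as lower. CFI, which cleaves activated C3b and C4b, lay at 9.04 to 10.21 against 8.11 to 8.95 in untreated tissue, with no overlap (1.27 ± 0.25, adjusted p = 0.0023 by limma). CFD, the protease of the alternative pathway, changed by 0.95 ± 0.23 (adjusted p = 0.011) and properdin, CFP, by 1.16 ± 0.35 (adjusted p = 0.036). Without an array set term 2 of the 10 passed.

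Beside CD68, 3 of 16 lysosomal genes passed as higher: the cathepsins CTSS (1.21 ± 0.29, adjusted p = 0.010), CTSK (1.28 ± 0.37, adjusted p = 0.031) and CTSL (0.49 ± 0.15, adjusted p = 0.045 by limma). Beside MRC1, 3 of 15 endocytic receptors did: the lectin CLEC4A (1.46 ± 0.21, adjusted p = 8e-05), the scavenger receptor MSR1 (0.90 ± 0.22, adjusted p = 0.012) and CD36 (0.80 ± 0.22, adjusted p = 0.026 by limma). Beside CD14, 3 of 10 genes of lipopolysaccharide signalling did: LY86 (1.10 ± 0.29, adjusted p = 0.016), TLR2 (0.77 ± 0.21, adjusted p = 0.023) and LY96 (1.08 ± 0.31, adjusted p = 0.030 by limma). None of these 3 lists had a gene that fell, and without an array set term they had 2, 1 and 0 passing genes.

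Of the ligands that draw or feed macrophages, 1 of 12 passed with hCG and TRL at day 15: CXCL12, which lay at 8.77 to 9.63 against 7.47 to 8.59 in untreated tissue (1.23 ± 0.29, adjusted p = 0.0079 by limma). CCL8, a monocyte chemokine, passed with hCG alone at day 15 against untreated tissue (0.83 ± 0.23, adjusted p = 0.030). Of 5 receptors and adhesion partners, SELPLG (0.53 ± 0.13, adjusted p = 0.011) and CD74 (1.00 ± 0.28, adjusted p = 0.024) passed with hCG and TRL. Of 11 factors that macrophages secrete, none rose and MMP14 fell (-0.27 ± 0.08, adjusted p = 0.038 by limma).

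Markers of other cell types were set beside the results with hCG and TRL at day 15. Of 22 T and natural killer cell genes 9 were measured, and the T cell genes CD3D, CD3E and CD3G were not among them. None of the 9 passed with hCG and TRL at day 15 (median change -0.02). Their mean level was 8.47 to 8.93 against 8.52 to 8.79 in untreated tissue. Of 13 neutrophil genes 3 were measured and none passed (median 0.42), with a mean level of 7.95 to 9.45 against 7.35 to 8.51. BLNK passed as higher among 5 B and plasma cell genes (1.19 ± 0.31, adjusted p = 0.016) and CD83 among 4 dendritic cell genes (0.74 ± 0.19, adjusted p = 0.014 by limma). None of 2 mast cell and 2 red cell genes passed. The part of these cells in the marker levels, LYZ included, was not tested.

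Among vessel and stromal genes, 5 fell and 1 rose. None of 12 endothelial genes passed, and 2 of 6 pericyte genes fell, CSPG4 (-0.68 ± 0.17, adjusted p = 0.011) and TAGLN (-0.81 ± 0.25, adjusted p = 0.042 by limma). Of 8 fibroblast genes 3 fell, COL6A3 (-0.99 ± 0.21, adjusted p = 0.0040), THY1 (-0.71 ± 0.16, adjusted p = 0.0072) and COL1A1 (-1.22 ± 0.31, adjusted p = 0.013 by limma), and DCN rose (1.09 ± 0.31, adjusted p = 0.028). Of 9 genes of luteal steroid synthesis 3 fell and 1 rose. NR5A2 fell (-0.67 ± 0.15, adjusted p = 0.0054), as did FDXR (-0.75 ± 0.17, adjusted p = 0.0074), and CYP17A1 rose (1.69 ± 0.41, adjusted p = 0.011 by limma). HSD3B2, whose product is the enzyme that TRL inhibits, lay at 10.57 to 11.88 with hCG and TRL at day 15, against 12.96 to 13.71 in untreated tissue (-2.41 ± 0.29, adjusted p = 1.6e-05 by limma).

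The same lists were read in the other comparisons. At day 10, after 1 day of treatment, VCAM1, the adhesion molecule that holds leukocytes to vessel walls, fell against untreated tissue in each group: by -1.48 ± 0.23 with hCG, TRL and R5020 (adjusted p = 0.0013), -1.22 ± 0.23 with hCG and TRL (adjusted p = 0.0034) and -0.93 ± 0.23 with hCG (adjusted p = 0.019 by limma), comparisons that share their untreated samples. The shares of all genes called lower were 0.723%, 1.66% and 1.28%. It was the 1 gene of the 12 ligands and adhesion molecules to pass there. IL18, an inflammatory cytokine, fell with R5020 at day 10 (-1.41 ± 0.34, adjusted p = 0.039 by limma), 1 of 11 secreted factors.

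Among the other day 10 calls, MERTK, a receptor for dying cells, fell with TRL (-0.67 ± 0.16, adjusted p = 0.022 by limma), and the engulfment adaptor ELMO1 rose with hCG (0.66 ± 0.18, adjusted p = 0.038), each 1 of 15 endocytic genes. Of all genes 4.24% were called higher with hCG. The dendritic cell factor ZBTB46 fell with TRL (-0.39 ± 0.11, adjusted p = 0.048) and with hCG (-0.37 ± 0.11, adjusted p = 0.047 by limma). CSPG4 fell with TRL (-0.61 ± 0.16, adjusted p = 0.041) and CYP17A1 rose with hCG (1.38 ± 0.40, adjusted p = 0.045 by limma).

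After 6 days of hCG against 1 day, 2 of the 43 wider myeloid genes rose and 1 fell. Of all genes 3.17% were called higher and 4.51% lower. SLC11A1 rose (0.87 ± 0.21, adjusted p = 0.0099), as did LY96 (1.05 ± 0.31, adjusted p = 0.039), and VCAN fell (-1.0 ± 0.30, adjusted p = 0.039 by limma). IL1RN, the interleukin 1 receptor antagonist (1.80 ± 0.38, adjusted p = 0.0042), the chemokine CCL3 (1.49 ± 0.35, adjusted p = 0.0088) and BLNK (1.12 ± 0.31, adjusted p = 0.027 by limma) also rose, while ELMO1 (-0.69 ± 0.19, adjusted p = 0.025) and THY1 (-0.56 ± 0.16, adjusted p = 0.038 by limma) fell. Of the steroid synthesis genes HSD3B2 (-1.45 ± 0.29, adjusted p = 0.0030), NR5A2 (-0.60 ± 0.15, adjusted p = 0.014) and FDXR (-0.68 ± 0.17, adjusted p = 0.016 by limma) fell.

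Between day 15 and day 10 with TRL, 1.51% of all genes were called higher and 1.28% lower. CLEC7A, the receptor for fungal glucan (1.29 ± 0.32, adjusted p = 0.027), and SIGLEC1 (1.04 ± 0.28, adjusted p = 0.046 by limma) rose among the 43 myeloid genes. CLEC4A (1.37 ± 0.29, adjusted p = 0.010), TLR2 (1.31 ± 0.29, adjusted p = 0.016), CFD (1.18 ± 0.32, adjusted p = 0.045) and BLNK (1.55 ± 0.43, adjusted p = 0.049 by limma) were the 1 passing gene of their lists, and HSD3B2 fell (-2.79 ± 0.40, adjusted p = 0.00038). With R5020 1.32% were called higher and 1.65% lower. IRF5 (0.42 ± 0.11, adjusted p = 0.047) and GPNMB (1.05 ± 0.29, adjusted p = 0.049 by limma) rose there. NPC1, which moves cholesterol out of lysosomes (-1.01 ± 0.25, adjusted p = 0.030), ELMO1 (-0.71 ± 0.19, adjusted p = 0.047) and HSD3B2 (-2.08 ± 0.30, adjusted p = 0.00042 by limma) fell, with NR5A2 (-0.63 ± 0.15, adjusted p = 0.024) and NR5A1 (-0.37 ± 0.09, adjusted p = 0.031).

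Against untreated tissue, day 15 tissue with R5020 had 1.79% of all genes called higher and 1.96% lower. BLNK (1.39 ± 0.31, adjusted p = 0.011), CD36 (0.90 ± 0.22, adjusted p = 0.024), CFD (0.83 ± 0.23, adjusted p = 0.048) and STAR (0.23 ± 0.05, adjusted p = 0.017 by limma) were higher. THY1 (-0.73 ± 0.16, adjusted p = 0.011), HSD3B2 (-1.95 ± 0.29, adjusted p = 0.00041) and NR5A2 (-0.73 ± 0.15, adjusted p = 0.0053 by limma) were lower. With hCG alone at day 15, 4.08% were called higher and 2.05% lower. IRAK1, a kinase of Toll-like receptor signalling (0.53 ± 0.16, adjusted p = 0.046), STAR (0.30 ± 0.05, adjusted p = 0.00071) and CYP17A1 (1.99 ± 0.39, adjusted p = 0.0026 by limma) were higher, and THY1 (-0.64 ± 0.15, adjusted p = 0.012), NR5A2 (-0.71 ± 0.14, adjusted p = 0.0026) and HSD3B2 (-1.0 ± 0.28, adjusted p = 0.032 by limma) were lower. For the R5020 comparison the passing counts per list were also computed with other handlings of array set and are not printed here. For hCG alone, and for single list genes, that dependence is not given.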

How the data were processed

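Whole corpus luteum RNA was measured on 33 arrays. The authors deposited log2 intensities per probe set. How they were background-corrected, summarized and normalized is not given in the sources used here. Of 52865 probe sets, 99 controls were left out, and 28911 exceeded the median of all values, 6.19, on at least 4 arrays and were kept. Array medians lay between 6.14 and 6.32, so the median of every array was subtracted. Names come from the platform annotation: 17606 kept ones have 1 symbol, 240 several and 11065 none. Each of 10507 genes is represented by its kept probe set of highest mean.

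Group and array set were terms of a limma fit (limma 3.58.1 in R 4.3.3, eBayes with its trend option, residual degrees of freedom 23) of 32 samples. The 17 two-sided comparisons were adjusted by Benjamini-Hochberg over all kept probe sets, at 0.05. The number of arrays limits the precision. The calculation was tested on simulated data. The markers and the 18 gene lists (323 entries, from general knowledge) were chosen with earlier results of these data known. Named are all 10 markers, up to 3 passing genes per list and comparison with the smallest adjusted p, and the 5 genes most alike to each marker (symbols beginning with LOC are not printed). LGMN, DCN, SLC40A1, CYP17A1 at day 15 with TRL and the genes set beside the second C1QA probe set were named after their values were seen. Centring, filter, array set, replicates and probe set choice were varied. Deposited p-values were not used, and no sequences or genome positions are given.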

Additional observations from a re-analysis of the deposited data

Results flagged for a closer look

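5 values lay far from the rest of their group of 4 samples, by a test that flags about 1 in 20 groups by chance, over 70 groups tested. All come from the 2 replicate 4 arrays of array set 3. The markers vary together on the same arrays, so these are not 5 separate events, and 5 of 70 is close to the rate given by chance. In the hCG and TRL day 15 group, replicate 4 was the lowest for C1QA at 9.87 (nearest sample 12.40), for CSF1R at 7.83 (nearest 9.69), for MRC1 at 8.31 (nearest 11.46) and for CD14 at 8.45 (nearest 10.08). In the R5020 day 15 group, replicate 4 was the lowest for TYROBP at 9.36 (nearest 10.33). These 2 arrays are the near-identical pair, with C1QA at 10.24 in the R5020 group and 9.87 in the TRL group, and a cause was not tested.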

How the results depend on the processing

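The number of markers passing with hCG and TRL at day 15 against untreated tissue, 8, became 1 without an array set term, 1 with set 3 counted as set 1, and 0 with a replicate block, and ran from 2 to 9 when 1 sample was left out. The single call with R5020 at day 15 against untreated tissue became 0 without a set term, within array set 2, with 33 arrays as separate samples, with set 3 counted as set 1 and with the replicate block, and ran from 0 to 1 when 1 sample was left out. Day 15 against day 10 with TRL, 0 in the report, became 1 without a set term, with 33 separate arrays and with set 3 counted as set 1, and 2 with set 3 left out and with the mean of a gene's probe sets, and ran from 0 to 6 when 1 sample was left out. Day 15 against day 10 with hCG alone became 1 with the mean of probe sets, where C1QA turned to -0.79. In limma with the replicate block 0 of all probe sets were called higher with TRL or R5020 at day 15 against untreated tissue, and it turned C1QA to -0.15, C1QC to -0.35, CSF1R to -0.12 and AIF1 to -0.15 with hCG and TRL at day 15. Replicate numbers 6 to 9 occur only among the untreated samples of array set 2. The block therefore absorbs those samples and leaves little to tell set 2 from set 1, so no conclusion is drawn from its 0 calls or turned signs. The 84 same-numbered pairs correlated at -0.56 to 0.47 (median 0.02, 8 of 32 samples best with their own number), so the numbers are not taken to pair samples. The cause of the other changes was not tested. The within-set alternative could not be run where groups share no set with at least 2 arrays each. The other 14 comparisons had 0 passing markers without any 1 sample.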
